A study of Homo sapiens with 16 samples.

Results

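The 6 control immunoprecipitations of T47D cells, 2 with each of 3 antibodies against NF-κB subunits, were compared with one another. They were chosen by their labels (Control, with the antibody P65, RelB or NFkB2) and are 6 of the 16 samples of the series, or 6 of its 12 immunoprecipitation (IP) libraries. T47D is an established human breast cancer line of the luminal, estrogen receptor positive type. All 6 libraries came from cells transduced with a lentivirus carrying an empty vector control, selected with puromycin, and fixed with disuccinimidyl glutarate and formaldehyde. The knockdown of DAB2IP, a RasGAP, is the subject of the other IP libraries, which were left out here. The DNA pulled down with the chromatin was sequenced (ChIP-seq), and peaks were called in each library against the control input of the same replicate number. RELA names the libraries of the P65 antibody, and replicate 1 and replicate 2 are the label numbers. The labels do not say whether the 2 libraries of an antibody came from separate cultures, so each p-value measures only the spread between libraries, which may be technical, and neither they nor the methods say whether the stable line was a clone or a pool.

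NF-κB is a family of transcription factors that bind κB sites in DNA as dimers. RELA, with NFKB1, is the main factor of the canonical pathway, which inflammatory cytokines switch on and which drives chemokine, adhesion and survival genes. RELB acts in the noncanonical pathway, in which the precursor encoded by NFKB2 is processed to the partner that enters the nucleus with RELB. RELB and NFKB2 are therefore known as partners of one dimer, and RELA as a subunit that is mostly regulated apart from them.

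The lists gave little that was particular to an antibody. Across replicate numbers, libraries of the same antibody shared hardly more of their covered bases than libraries of different antibodies. Libraries of different antibodies with the same replicate number shared more than either. The NFKB2 lists were the longest, and they were also the lists with the most peaks that rested on a few fragments. Each comparison is given below with its values in all 6 libraries.

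RELA replicates 1 and 2 had 527111 and 517399 peaks on chromosomes 1 to 22 and X. The RELB libraries had 557151 and 524731 peaks. The NFKB2 libraries had 708547 and 675303 peaks, so that both lay above all 4 other libraries. The mean ± SD (n = 2 each) of the RELA lists was 522255 ± 6867 peaks, that of the RELB lists 540941 ± 22924 and that of the NFKB2 lists 691925 ± 23507. The NFKB2 lists held 1.32 times as many peaks as the RELA lists (log2 ratio of RELA over NFKB2 −0.41) and 1.28 times as many as the RELB lists (log2 ratio of RELB over NFKB2 −0.36). In both comparisons the exact two-sided permutation p was 0.33, the smallest that 2 libraries against 2 allow. RELA and RELB overlapped, with a log2 ratio of −0.05 (exact two-sided permutation p = 0.667). The peaks covered 119.5 and 119 Mb with RELA, 128 and 121 Mb with RELB, and 164 and 157 Mb with NFKB2, and their median length was 182 to 192 bp.

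The order of the antibodies turned round when weak peaks were left out. Each list had been filled down to an unadjusted p of 0.05, and few entries reached a q (the p adjusted for multiple testing by the peak caller) of at most 0.05. RELA had 149 and 179 such peaks, RELB 164 and 139, and NFKB2 114 and 117. Here both NFKB2 libraries were the lowest of the 6 (log2 ratio of RELA over NFKB2 0.50, of RELB over NFKB2 0.39, exact two-sided permutation p = 0.33 each). As a share of the list this was 0.0161% (95% exact confidence interval 0.0133% to 0.0193%) in NFKB2 replicate 1 and 0.0346% (0.0297% to 0.0401%) in RELA replicate 2, the extremes of the 6. These intervals cover counting error only.

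The number of fragments at each summit showed where the lists differed. It was recovered as the whole number whose Poisson p, at the listed fold enrichment, lay nearest to the listed p-value of each peak. For 100% of peaks the error was under 0.001 in −log10 p. NFKB2 had 210736 and 194901 summits of exactly 2 fragments, against 79989 and 58571 with RELA and 93614 and 84272 with RELB. Summits of at most 3 fragments made up 70.3% and 68.7% of the NFKB2 lists. They made up 49.6% and 41.1% of the RELA lists and 52.6% and 50.9% of the RELB lists. With at least 4 fragments at the summit, the order was again the reverse of that of the whole lists: 265843 and 304983 peaks with RELA, 264303 and 257905 with RELB, and 210144 and 211292 with NFKB2. Both NFKB2 libraries then lay below all 4 others (log2 ratio of RELA over NFKB2 0.43, of RELB over NFKB2 0.31, exact two-sided permutation p = 0.33 each).

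**Figure D1:**
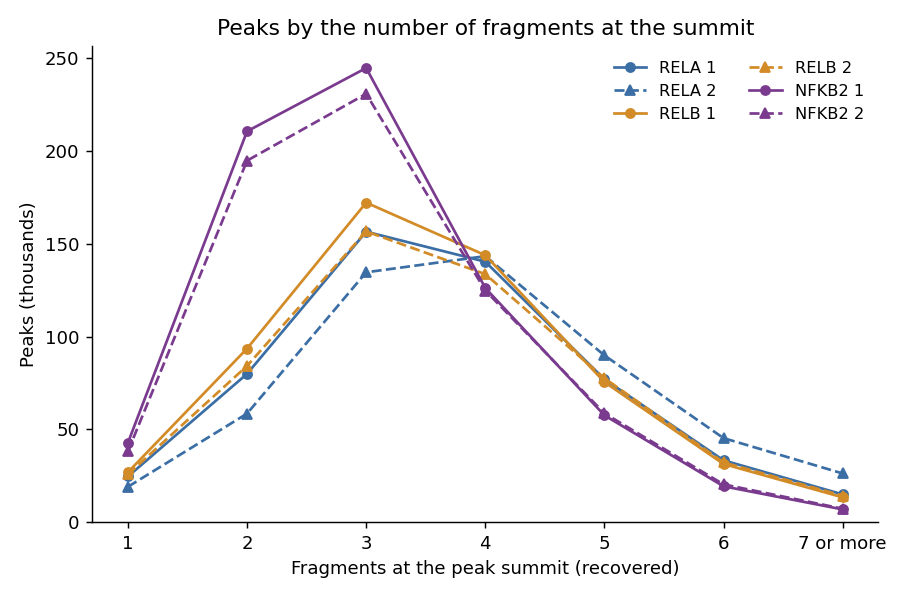
Number of peaks (axis in units of 1000) by how many fragments were recovered at the summit, with 1 line per library, circles for replicate 1 and triangles for replicate 2. The NFKB2 lines lie far above the others at 2 and 3 fragments, with 210736 and 194901 peaks at 2, and below them from 4 fragments on.

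Depth moved with this result. The relative IP depth (the lowest local background in fragments, a value that scales with the fragments sequenced) was 0.0518 and 0.0536 in the NFKB2 libraries. It was 0.0627 and 0.0706 with RELA and 0.0610 and 0.0619 with RELB, so that the libraries with the longest lists were the shallowest. The ratio of IP to input fragments was 0.769 and 0.734 with NFKB2, and 0.848 to 0.967 in the other libraries. At the background that 1 input fragment gives, a summit of 2 fragments has a Poisson p of 0.0430 and 0.0384 in the NFKB2 libraries and of 0.0545 to 0.0743 in the others, on either side of the 0.05 threshold of the lists. Such summits numbered 68016 and 59438 in the NFKB2 lists and 0 in each RELA and RELB list. Without them NFKB2 still had 640531 and 615865 peaks, which lay above the 4 other libraries. The part of depth in the remaining difference was not tested, and antibody and depth cannot be told apart with all NFKB2 libraries shallower than the others.

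The NFKB2 excess was not even along the genome. On chromosome X, RELA had 260 and 233 peaks per Mb, RELB 280 and 264, and NFKB2 428 and 409, or 1.61 times the mean of the RELA and RELB libraries. On chromosome 19 the NFKB2 libraries had 259 and 217 peaks per Mb against 143 to 171 in the others, a ratio of 1.53. Chromosomes 22, 2 and 18 had ratios of 1.53, 1.52 and 1.51. In contrast, NFKB2 had 165 and 152 peaks per Mb on chromosome 20, within the 144 to 174 of the other libraries, with a ratio of 1.02. Chromosome 15 had a ratio of 1.02 and chromosome 14 one of 1.04.

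Both NFKB2 libraries lay above all RELA and RELB libraries on 18 of 23 chromosomes (78.3%), and below them on 0. On chromosomes 14, 15, 17, 20 and 21 the groups overlapped. With at least 4 fragments at the summit, both NFKB2 libraries lay below all 4 others on 23 of 23 chromosomes (100%), with ratios from 0.64 on chromosome 19 to 0.87 on chromosome 11. RELA and RELB were closer: both RELA libraries lay below both RELB libraries on 6 of 23 chromosomes (26.1%) in all listed peaks, and above them on 13 of 23 (56.5%) with at least 4 fragments.

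**Figure D2:**
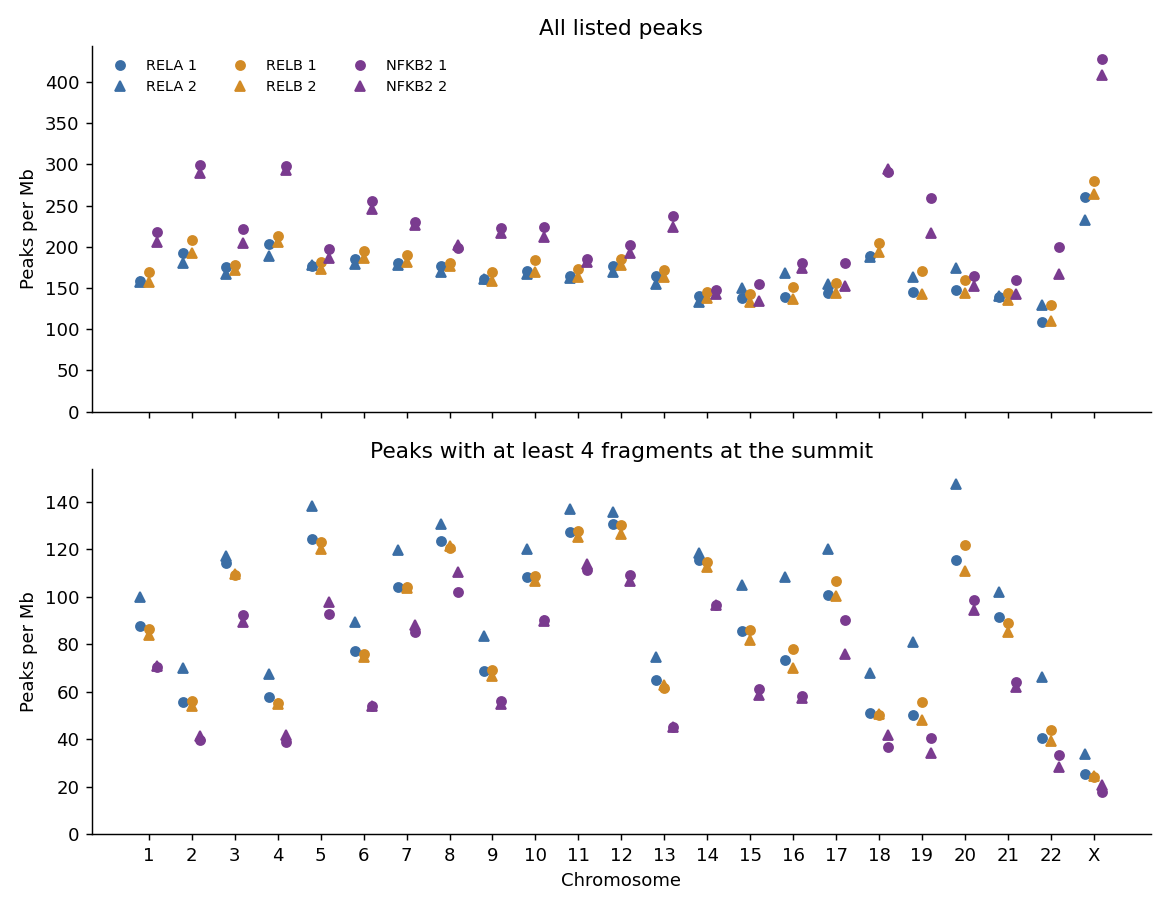
Peaks per Mb on each chromosome for all listed peaks (top) and for peaks with at least 4 fragments at the summit (bottom), 1 point per library, coloured by antibody. In the upper panel the NFKB2 points lie above the others on 18 of 23 chromosomes, most on X, and in the lower panel they lie below the others on 23 of 23.

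The NFKB2 ratio went with the local background of a chromosome, which was lowest on X. The median local background at summits on chromosome X was 0.342 and 0.412 fragments with RELA, 0.33 and 0.336 with RELB and 0.339 and 0.324 with NFKB2. On chromosome 20 it was 1.34 and 1.65, 1.33 and 1.33, and 1.13 and 1.16 in the same order. Across the 23 chromosomes, the ratio of NFKB2 to the other libraries went down as the background of RELA replicate 1 went up (Pearson's r = −0.90, Spearman's rho = −0.85, and r = −0.89 over 22 chromosomes without X). With the background of the other 5 libraries r was −0.90 to −0.76. For peaks with at least 4 fragments the sign was the opposite, with r = 0.70 for the background of RELA replicate 1. These coefficients describe chromosomes of the same 6 libraries, which share depth, input and copy number and are no replicates.

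**Figure D3:**
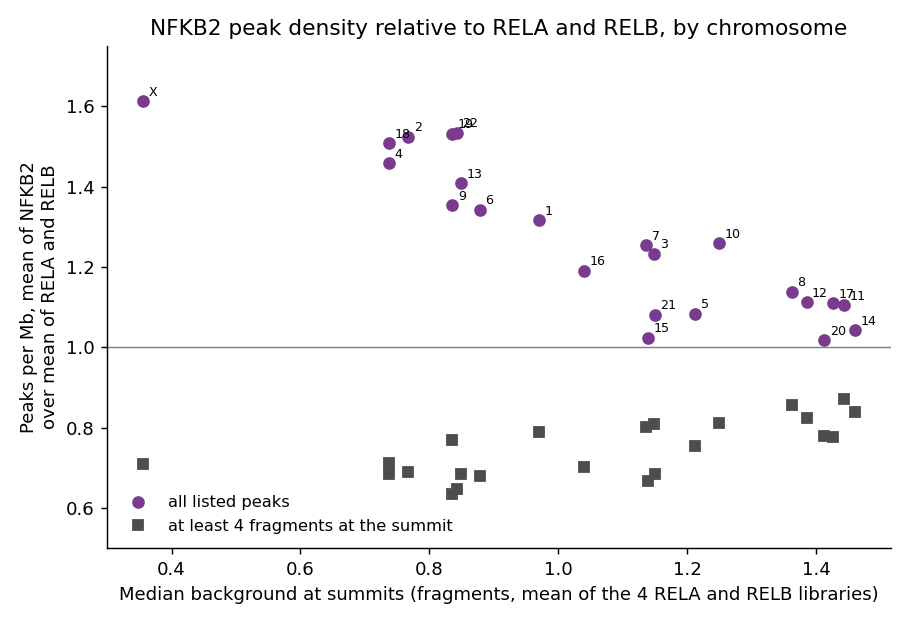
Ratio of NFKB2 peaks per Mb to the mean of RELA and RELB, against the median local background at summits (fragments, mean of the 4 RELA and RELB libraries), 1 point per chromosome. For all listed peaks (circles, labelled by chromosome) the ratio falls from 1.61 on X to 1.02 on chromosome 20, and for peaks with at least 4 fragments (squares) every chromosome lies below 1.

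The overlap of a pair of lists was measured by the bases under peaks of both, as a share of the bases under peaks of at least one (Jaccard index). The 2 RELA libraries had an index of 2.58%, the 2 RELB libraries 2.75% and the 2 NFKB2 libraries 3.72%. Pairs of different antibodies and different replicate numbers, which share no input, had 2.65% to 3.09% (6 pairs, mean 2.90%). The RELA pair was thus below all of these 6 crossed pairs, the RELB pair lay among them and the NFKB2 pair lay above them. Over the 3 antibodies the mean of same-antibody pairs was 3.02%, which exceeded the crossed mean by 0.114 percentage points. Of the 6 ways to assign the antibody names within replicate 2, another reached at least this value (exact one-sided permutation p = 0.33, with 0.17 the smallest possible).

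RELA and RELB were no more like themselves than like each other. The mean index of the RELA pair and the RELB pair was below that of the crossed RELA and RELB pairs, which had 2.65% and 2.71%, by a difference of −0.0126 percentage points. By chromosome this difference was above 0 on 12 of 23, with a range from −0.110 to 0.0949. RELB against NFKB2 differed by 0.184 percentage points in favour of the same antibody, and RELA against NFKB2 by 0.170, positive on 22 and 20 of 23 chromosomes. Both changed sign when an NFKB2 library was left out. Without NFKB2 replicate 1 or 2 the RELB against NFKB2 value was −0.337 or −0.265, and that of RELA against NFKB2 was −0.433 or −0.369. What remained was a RELA or RELB pair against a crossed pair that held a longer NFKB2 list. List length alone raises the crossed index, so these signs do not show that the differences rested on the NFKB2 pair. With 2 antibodies there are only 2 orders, so that a p below 0.5 cannot be reached, and no p is given for these 3 values.

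Longer lists cover more bases and overlap more for that reason alone, and the NFKB2 lists were the longest. Each index was therefore divided by the index of 2 independent lists that cover the same shares of the chromosomes. On this scale the NFKB2 pair was at 1.37, the RELB pair at 1.31 and the RELA pair at 1.29. The 6 crossed pairs lay between 1.27 and 1.34, and the highest of them was RELA replicate 1 with RELB replicate 2. The RELB pair (1.312) lay above both crossed pairs of RELB with NFKB2 (1.295 and 1.285). The RELA pair (1.286) lay between the crossed pairs of RELA with NFKB2 (1.315 and 1.269). The same-antibody mean exceeded the crossed mean by 0.0269 (exact one-sided permutation p = 0.33). RELB and NFKB2, the subunits known as partners, did not stand out on this scale: their 2 crossed pairs lay inside the range of the RELA and RELB pairs (1.27 and 1.34), and the RELA and NFKB2 pairs were at 1.32 and 1.27.

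The replicate number separated the libraries more than the antibody did. Pairs of different antibodies with the same number had an index of 4.57% to 5.48% (6 pairs, mean 4.90%), so that each of them lay above each of the 9 pairs across numbers. The separation was 2.00 percentage points (exact one-sided permutation p = 0.25, the smallest that 4 orders allow), and it was positive on 23 of 23 chromosomes. The closest pair of all was RELA with RELB in replicate 1, at 5.48% and at 2.63 times the value of independent lists. The 3 libraries of a number had the same relative input depth, 0.0674 for replicate 1 and 0.0731 for replicate 2. The input and anything else that the libraries of a number share cannot be told apart here.

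**Figure D4:**
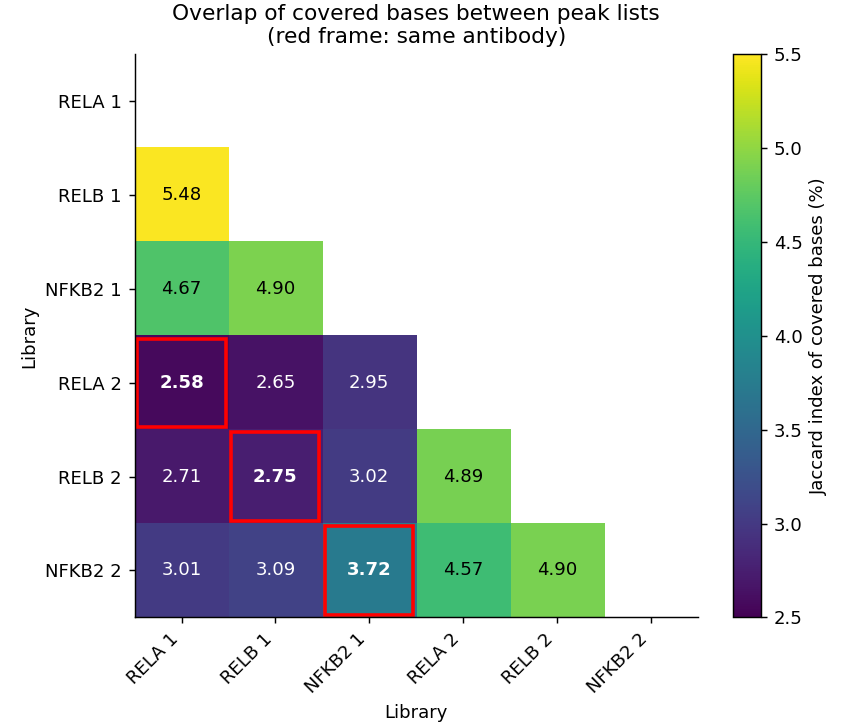
Jaccard index of covered bases (%) for the 15 pairs of libraries, ordered by replicate number, with the 3 same-antibody pairs framed in red. The pairs within a replicate number hold the 6 highest values, 4.57% to 5.48%. The framed RELA and RELB pairs (2.58% and 2.75%) lie close to the pairs of different antibodies across numbers, and the framed NFKB2 pair (3.72%) lies above those.

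The mean of the same-number pairs stayed the highest in stricter selections of peaks. With at least 4 fragments at the summit, the mean index was 1.55% for the same antibody, 1.53% for crossed pairs and 2.31% for pairs of the same number. The NFKB2 pair was then the lowest of all 15 pairs, at 1.39%, below the RELA pair at 1.63% and the RELB pair at 1.62%. With the 20000 smallest p-values of each list the means were 0.509%, 0.494% and 1.15%. The peaks at a q of at most 0.05 overlapped the most. There the NFKB2 pair reached 19.4%, the highest of the 15 pairs, while the RELA pair had 8.19% and the RELB pair 10.2%, among crossed pairs at 7.76% to 14.3% and pairs of the same number at 9.55% to 16.5%. The difference between same-antibody and crossed pairs was 1.63 percentage points for these peaks (exact one-sided permutation p = 0.17, the smallest possible), on 114 to 179 peaks per library. Where peaks overlapped, their summits lay a median of 109 to 114 bp apart in every pair, and 9.32% to 10.6% lay within 20 bp.

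**Figure D5:**
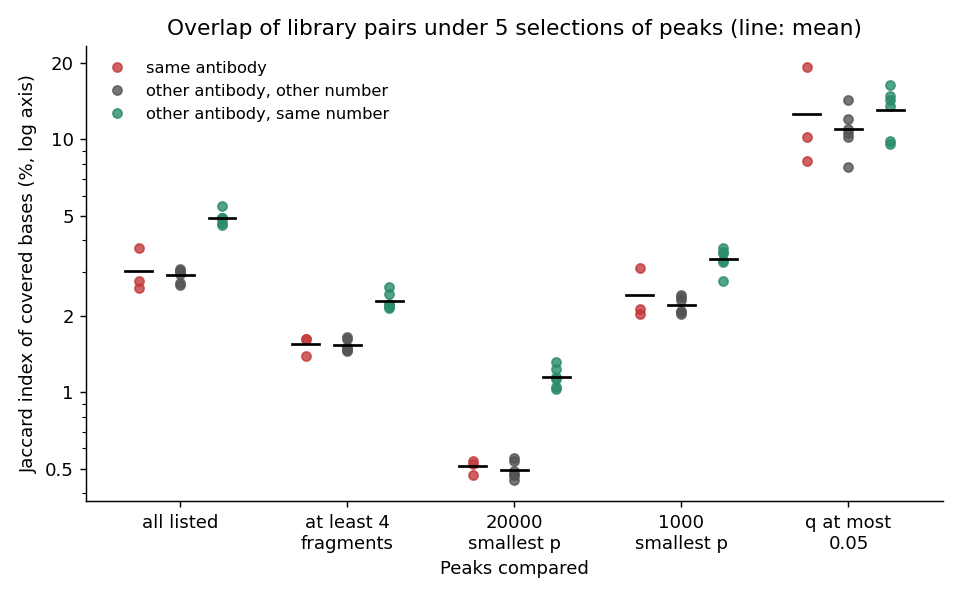
Jaccard index of covered bases (%, log axis) for the 15 pairs under 5 selections of peaks, coloured by the kind of pair, with lines at the means. Same-antibody and crossed pairs overlap in each selection, and the mean of same-number pairs is the highest of the 3 means in each, although the NFKB2 pair at 19.4% is the highest single pair at a q of at most 0.05.

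Merging the peaks of the 6 libraries where they shared at least 1 bp gave 2523400 regions. Most of them, 1843444 (73.1%), were called in a single library, and 3001 (0.119%) were called in all 6. Regions called in both libraries of an antibody and in no other library came to 17835 with RELA, 19463 with RELB and 41361 with NFKB2. The same count for crossed pairs of libraries was 18524 and 19021 for RELA with RELB, 26922 and 26562 for RELB with NFKB2, and 25277 and 26391 for RELA with NFKB2. For pairs of the same number it was 36593 to 48634. The RELA count lay below both crossed counts of RELA with RELB, and the RELB count above them. With at least 4 fragments, the regions of RELA only were 10920, of RELB only 9629 and of NFKB2 only 6412, the reverse of the order in all listed peaks.

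None of the regions called with a single antibody reached a q of at most 0.05 in both libraries, and 3 of RELA, 0 of RELB and 1 of NFKB2 reached it in at least 1. The leading region of RELA was chr16:36338814-36338984, with 9 and 14 fragments and a fold of 3.50 and 3.85. Its −log10 q was 0 in replicate 1 and 0.55 in replicate 2, where 1.3 stands for a q of 0.05. It lay 1949 kb from the nearest protein-coding gene. The other 2 named RELA regions were chr13:46973493-46973822, 75.4 kb from HTR2A, a serotonin receptor gene, with 7 and 6 fragments, and chr8:10012371-10012889, 41.4 kb from MSRA, with 2 and 3 fragments at the best summit. The leading region of RELB, chr15:74084721-74084937, lay 2.17 kb from GOLGA6A, a member of a family of near-identical golgin genes among which reads cannot always be assigned, and had 9 and 7 fragments. The other 2, chr7:60508793-60509188 and chrX:59741339-59741621, rested on 2 fragments in each library. Of the NFKB2 regions, chr5:44742862-44743163 and chr3:164935075-164935385 lay 65.8 kb from MRPS30 and 43.5 kb from SI, with 7 and 7 and with 8 and 7 fragments. The third, chr11:88851892-88852352, lay within GRM5, a glutamate receptor gene, with 6 fragments in each library. These named regions of RELB and NFKB2 had a −log10 q of 0 in both libraries. Whether the named regions of any antibody lie in repeated sequence was not tested.

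Regions with a low q in all libraries were few. At a q of at most 0.05 the lists merged into 593 regions, of which 490 reached it in 1 library and 20 in all 6. Of the 3001 regions listed in all 6 libraries at any q, 92 reached it in at least 1. The 20 regions lay on chromosomes 1, 2, 5, 10, 16 and 17, none overlapped an annotated gene, and the nearest protein-coding gene to any of them was 177 kb away. Whether they lie in repeated sequence, where reads cannot always be assigned, was not tested, so they are not given as binding sites. The leading one, chr5:49646015-49646195, had 85 and 109 fragments with RELA, 87 and 83 with NFKB2, and a fold of 4.30 to 5.65 over the 6 libraries. At chr1:143214351-143214906 the 6 libraries had 257 to 262 fragments. Their −log10 q was 15.2 and 17.9 with RELA, 17.6 and 23.2 with RELB and 28.1 and 34.9 with NFKB2. The fold there was 1.98 and 2.04 with RELA, 2.06 and 2.28 with RELB and 2.46 and 2.65 with NFKB2, whose local background was lower at nearly the same number of fragments. The most fragments at any summit were 285 to 294 in the 6 libraries. Whether an upper limit on fragments held these counts together was not tested, so the fold and q there are no measure of binding by antibody. At chr16:46386319-46386632 the fold was 2.53 and 2.49 with NFKB2 and 2.05 to 2.17 in the other libraries. At chr17:25074384-25074564 the fold was 2.67 and 2.55 with NFKB2, within the 2.40 to 2.76 of the others. The fifth region, chr5:49630831-49631182, had a fold of 2.15 to 2.85 over the 6 libraries.

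Promoters were examined as 1 kb either side of a protein-coding gene start, for 15812 genes with a start in RefSeq. The share of peaks there was 0.912% and 0.946% with RELA, 1.06% and 0.826% with RELB, and 0.981% and 0.783% with NFKB2. The antibodies overlapped in each comparison (log2 ratio of RELA over RELB −0.02, exact two-sided permutation p = 1, of RELB over NFKB2 0.09, p = 0.667, and of RELA over NFKB2 0.08, p = 1). The direction of each turned when 1 library was left out. Without RELB replicate 1, RELA over RELB was 0.17 and RELB over NFKB2 −0.09. Without NFKB2 replicate 2, RELB over NFKB2 was −0.06 and RELA over NFKB2 −0.08. Leaving out 1 library also leaves the replicate numbers unbalanced between the antibodies. Within each number the RELB share lay above the NFKB2 share. The RELA share lay below both others in replicate 1 and above both in replicate 2. Promoter bases were covered 0.711 to 0.995 times as often as all bases of the chromosomes, lowest in NFKB2 replicate 2 and highest in RELB replicate 1. In the narrower window of 250 bases before to 50 after the start, the ratio was 0.883 and 0.890 with RELA, 1.19 and 0.785 with RELB, and 1.03 and 0.661 with NFKB2. Replicate 1 of RELB and of NFKB2 were above 1 there and their replicate 2 below it, so that the libraries of an antibody lay on either side.

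A gene was counted for an antibody when both of its libraries had a peak within 1 kb of the start. This held for 1332 genes (8.42%) with RELA, 1449 (9.16%) with RELB and 1996 (12.6%) with NFKB2, of which 184 (1.16% of all genes), 189 (1.2%) and 288 (1.82%) had no peak of another antibody. Crossed pairs of libraries had 1274 and 1584 such genes for RELA with RELB, 1668 and 1652 for RELB with NFKB2, and 1470 and 1828 for RELA with NFKB2. The counts of RELA and RELB lay between the crossed counts of those antibodies, and the count of NFKB2 above all crossed counts. Pairs of the same number had 1529 to 2498 such genes, the most for RELB with NFKB2 in replicate 1, above the count of NFKB2. The NFKB2 lists were also the longest, and the part of list length in these counts was not tested. In all, 97 genes (0.613%) had a promoter peak in each of the 6 libraries, and 2974 had none.

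Pathway genes and comparison genes in 7 lists were examined at their promoters, with a start in the table for 55 of 69 genes. With RELA, 0 of the 55 genes had a promoter peak in both libraries, against 8.42% of all genes. With RELB it was also 0 of 55, against 9.16%, and with NFKB2 it was 3 of 55 (5.45%), against 12.6%. The 3 genes were NFKB2, ESR1 and RPLP0. The highest −log10 q at a promoter of the lists was 0 and the best summit held at most 9 fragments.

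Among the genes of the subunits, the NFKB2 gene itself had 1 promoter peak in each NFKB2 library, with 4 and 8 fragments and a fold of 1.86 and 1.93. It also had 1 peak of 5 fragments in RELB replicate 1, and none in RELB replicate 2 or the RELA libraries. The RELA gene had a promoter peak in 1 library, NFKB2 replicate 1, with 5 fragments. REL, which encodes another subunit of the RELA type, had peaks of 3 fragments in RELB replicate 1 and 4 fragments in NFKB2 replicate 2. NFKB1, whose product is the usual partner of RELA, had a peak of 2 fragments in NFKB2 replicate 2 alone. RELB has no entry in the table of starts. In its gene span with 1 kb added it had 8 and 10 peaks with RELA, 12 and 2 with RELB and 13 and 14 with NFKB2, none of which had a q of at most 0.05.

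The inhibitors and regulators of the pathway (11 with a start) had 0 promoters called in both libraries of any antibody. Of all genes this held for 8.42% with RELA, 9.16% with RELB and 12.6% with NFKB2, and 11 genes are too few to tell 0 from these shares. Called in at least 1 library were 3 with RELA, 4 with RELB and 2 with NFKB2, against 47.2%, 48.8% and 53.3% of all genes. NFKBIA, the inhibitor that RELA itself induces, had 2 peaks in RELA replicate 1, 0 in RELA replicate 2, 1 in NFKB2 replicate 1 and 0 in the remaining libraries. BCL3, a nuclear cofactor, had 2 peaks in RELA replicate 1 and 0 in the other 5. TNFAIP3, which shuts the canonical pathway off, and MAP3K14, the kinase of the noncanonical pathway, had 0 in all 6.

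Known canonical targets (13 with a start) had a promoter peak in at least 1 library in 7 cases with RELA, 2 with RELB and 7 with NFKB2. Both libraries had one in 0 cases, against 8.42%, 9.16% and 12.6% of all genes with RELA, RELB and NFKB2. Of all genes, 47.2%, 48.8% and 53.3% were called in at least 1 library, so that 7 of 13 was near the share of all genes. The chemokine gene CXCL8 had 1 peak in RELA replicate 2 and 1 in NFKB2 replicate 2, libraries that share an input, and 0 elsewhere. CXCL2, another chemokine gene, was called in the same libraries with 1 peak each. CXCL1 had 1 peak in RELA replicate 1 and 2 in NFKB2 replicate 1. CFLAR, an inhibitor of caspase activation, had 1 peak in each library of replicate 1 and 0 in each library of replicate 2. ICAM1, an adhesion gene, went the other way, with 1 peak in RELA replicate 2 and 1 in NFKB2 replicate 1, which share no input. The remaining calls were in a single library: SOD2 and TNFAIP2 in RELA replicate 1, CCL20 in RELB replicate 1, and BCL2L1 and TRAF1 in NFKB2 replicate 1. IL6, TNF and BIRC3 had 0 in all 6. Of the 6 noncanonical targets with a start, 0 had a promoter peak in a RELA library, 3 in at least 1 RELB library and 3 in at least 1 NFKB2 library. The shares of all genes in at least 1 library were again 47.2%, 48.8% and 53.3%. TNFSF11 and MADCAM1 had 1 peak in replicate 1 of both antibodies and 0 in replicate 2, and CXCL12 and CCL19 had 1 peak in a single library. At this number of libraries and peaks no difference between antibodies can be drawn from these lists.

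Over gene spans with 1 kb added, both libraries called 75.1%, 74.5% and 76.3% of 19974 protein-coding genes with RELA, RELB and NFKB2. Of the 13 inhibitors and regulators, 10, 9 and 10 were called. Of the 15 canonical targets it was 9, 6 and 11, and of the 7 noncanonical targets 4, 4 and 5. The spans of the lists were not matched in length to those of all genes. The highest −log10 q within a listed gene span was 0.707, among the inhibitors and regulators, short of the 1.3 of a q of 0.05.

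Promoter sequences are shown for the genes with the strongest calls of each kind in the 250 bases before the start, so that a reader can see what lay under the peaks of an antibody. They are RefSeq sequences of GRCh38.p14, 5′ to 3′ on the strand of the gene, ending at the base before the start. Capitals mark the bases under a peak in every library that called the promoter. With RELA only, these were ELK4, which encodes a transcription factor of the ETS family (chr1:205632012-205632261, minus strand), and COL4A2, a gene of basement membrane collagen (chr13:110307034-110307283, plus strand):
ELK4: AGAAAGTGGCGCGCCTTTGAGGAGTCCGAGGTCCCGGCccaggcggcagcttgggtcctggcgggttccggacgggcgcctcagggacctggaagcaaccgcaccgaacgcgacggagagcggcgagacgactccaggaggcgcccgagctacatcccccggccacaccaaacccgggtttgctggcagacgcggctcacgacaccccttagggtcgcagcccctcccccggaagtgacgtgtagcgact
COL4A2: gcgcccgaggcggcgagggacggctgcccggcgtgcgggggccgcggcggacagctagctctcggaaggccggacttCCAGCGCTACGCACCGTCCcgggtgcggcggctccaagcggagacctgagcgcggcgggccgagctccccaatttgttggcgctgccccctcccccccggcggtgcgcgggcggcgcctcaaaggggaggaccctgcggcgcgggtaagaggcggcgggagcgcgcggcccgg

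ELK4 had 6 and 7 fragments in the RELA libraries and COL4A2 5 and 6, with a fold of 2.52 and 2.77 and of 2.55 and 3.02. The shared bases lay far from the start in ELK4 and covered 38 bases, and in COL4A2 they covered 19. With RELB only, the strongest calls were SUPT20HL2 (chrX:24314070-24314319, minus strand) and TFEC, which encodes a transcription factor of the MiT family (chr7:116030764-116031013, minus strand):
SUPT20HL2: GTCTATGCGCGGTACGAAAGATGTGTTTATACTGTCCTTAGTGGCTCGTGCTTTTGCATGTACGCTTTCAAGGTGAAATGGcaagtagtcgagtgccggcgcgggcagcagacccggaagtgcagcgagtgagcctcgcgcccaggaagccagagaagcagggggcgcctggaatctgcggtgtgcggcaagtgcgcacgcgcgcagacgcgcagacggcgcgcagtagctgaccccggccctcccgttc
TFEC: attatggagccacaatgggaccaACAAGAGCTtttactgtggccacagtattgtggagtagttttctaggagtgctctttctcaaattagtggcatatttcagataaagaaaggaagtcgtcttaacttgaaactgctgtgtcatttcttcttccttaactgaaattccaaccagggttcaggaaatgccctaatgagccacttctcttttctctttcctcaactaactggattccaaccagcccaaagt

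SUPT20HL2 had 4 and 5 fragments in the RELB libraries and TFEC 5 and 4, with 81 and 9 bases under both peaks. With NFKB2 only, they were AOPEP, an aminopeptidase gene (chr9:94726449-94726698, plus strand), and SLK, a gene for a kinase (chr10:103966890-103967139, plus strand):
AOPEP: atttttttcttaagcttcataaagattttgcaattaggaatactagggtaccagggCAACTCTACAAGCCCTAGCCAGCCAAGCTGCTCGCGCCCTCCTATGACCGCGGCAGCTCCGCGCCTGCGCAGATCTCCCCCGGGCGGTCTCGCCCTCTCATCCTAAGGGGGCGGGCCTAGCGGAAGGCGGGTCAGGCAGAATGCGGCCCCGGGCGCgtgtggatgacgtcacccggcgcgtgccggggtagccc
SLK: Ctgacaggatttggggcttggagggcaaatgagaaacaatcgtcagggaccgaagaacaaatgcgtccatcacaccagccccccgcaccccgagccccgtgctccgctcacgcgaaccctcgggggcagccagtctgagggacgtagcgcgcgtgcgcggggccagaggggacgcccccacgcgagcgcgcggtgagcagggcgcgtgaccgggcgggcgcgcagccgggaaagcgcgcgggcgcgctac

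AOPEP had 5 and 6 fragments and a fold of 3.35 and 4.04, the highest of these 6 genes, with 156 bases under both peaks. SLK had 4 and 4 fragments and the peaks shared 1 base of the window. The promoters called in the most libraries were U2AF1, which encodes a splicing factor (chr21:43107571-43107820, minus strand), with all 6, and NOTCH2NLB (chr1:148712535-148712784, minus strand), with 5:
U2AF1: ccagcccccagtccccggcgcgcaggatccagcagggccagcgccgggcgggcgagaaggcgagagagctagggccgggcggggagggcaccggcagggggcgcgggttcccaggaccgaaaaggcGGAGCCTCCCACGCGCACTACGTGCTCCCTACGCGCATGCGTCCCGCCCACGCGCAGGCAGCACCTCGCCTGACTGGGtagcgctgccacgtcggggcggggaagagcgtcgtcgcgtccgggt
NOTCH2NLB: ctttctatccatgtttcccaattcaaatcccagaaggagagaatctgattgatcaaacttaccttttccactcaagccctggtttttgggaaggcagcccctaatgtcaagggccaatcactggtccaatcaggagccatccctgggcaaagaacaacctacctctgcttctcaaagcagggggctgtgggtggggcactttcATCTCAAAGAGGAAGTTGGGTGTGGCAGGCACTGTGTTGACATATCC

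U2AF1 had 3 and 2 fragments with RELA, 2 and 2 with RELB and 1 and 4 with NFKB2, and was the only gene of 15812 called in all 6 libraries in this window. NOTCH2NLB had 3 and 5, 3 and 4, and 5 fragments in NFKB2 replicate 1. Both have near-identical copies in the reference, so that reads may have been split between copies. The −log10 q was 0 at each of these 8 promoters except NOTCH2NLB in NFKB2 replicate 1, where it was 0.563.

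The κB consensus motif (3 G, a purine, 2 bases of any kind, 2 pyrimidines and 2 C, read on both strands) was present in 1940 of 15812 promoter sequences of 250 bases before to 50 after the start, or 12.3%. Of promoters with a RELA peak in this window, 11.5% and 12.5% held it. With RELB it was 13.1% and 12.6%, and with NFKB2 12.5% and 9.38%. In the promoters without a peak it was 12.2% to 12.5% in each of the 6 libraries. The lowest value was that of NFKB2 replicate 2, whose promoters with a peak also had the lowest median GC content of the 6 libraries. At a GC content of 60% to 70% its promoters with a peak held the motif in 9.43%, against 13.8% of all such promoters. From 70% on it was 16.6% against 18.1%. The part of GC content in the lowest value was not tested. Among the printed promoters, those of SLK and U2AF1 held the motif in the 250 bases shown. In SLK it lay outside the 1 base under both peaks, and in U2AF1 a match lay within the marked bases.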

How the data were processed

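ChIP-seq peak lists of the 6 control libraries were used as deposited. Per the submitters' processing notes, the authors' reads were mapped with BWA 0.7.12 to hg38 and peaks called with MACS2 2.1.0, in each library separately. The deposited positions count from 0, the score in the deposited lists equals 10 times the −log10 p without its decimals, fold enrichments at summits are a deposited ratio, and the authors' lists also give −log10 p-values and −log10 q-values. The unadjusted p reached 0.05 and 99.7% to 99.9% of listed peaks had a q of 1. Chromosomes 1 to 22 and X were used, 41 to 91 repeated intervals per list were dropped, and 0 intervals exceeded 5000 bp. Total reads are unknown: fragments t and background b at a summit were solved from fold = (t + 1)/(b + 1) and the Poisson p (error under 0.001 in −log10 p), which was tested on simulated data. Replicate numbers pair the libraries, since the 3 lists of a number gave the same input depth. Overlaps of antibodies were compared across numbers with exact permutation tests. The main tests of peak numbers and promoter shares permuted all libraries of both antibodies, whatever their number. Named regions were, per antibody, the 3 called in both its libraries and no other with the highest smaller −log10 q, then −log10 p, and the 5 called in all 6. Named genes were the subunits, listed genes with a promoter peak in both libraries of an antibody, and the 2 promoters per kind with the highest smaller −log10 p. The other listed genes given with counts were chosen after their values were seen. Members and lists were chosen with earlier results of these data known. RefSeq GRCh38.p14 gave genes, starts and sequences. Scripts ran in Python 3.11.15 with scipy 1.17.1, pandas 2.3.3, numpy 2.4.6 and matplotlib 3.10.9. Alternatives are listed under the dependence on processing. Knockdown and input samples were not used here.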

Additional observations from a re-analysis of the deposited data

Results flagged for a closer look

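Peaks on sequences that the comparisons did not use were flagged where a library had more than 3. This is a fixed cutoff and not a statistical bound. On the mitochondrial genome, RELB replicate 2 had 45 peaks, NFKB2 replicate 1 had 41 and NFKB2 replicate 2 had 48, which covered 13192, 15031 and 15635 bases. RELA replicates 1 and 2 had 0 and RELB replicate 1 had 1 such peak. The 3 libraries with these peaks had the lowest ratios of IP to input fragments, 0.848, 0.769 and 0.734, and the part of that ratio was not tested here.

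On scaffolds, patches and alternate sequences, peaks at a q of at most 0.05 numbered 45 and 72 with RELA, 47 and 33 with RELB, and 36 and 34 with NFKB2. All listed peaks there numbered 8403 to 8915 with RELA and RELB and 10070 and 9967 with NFKB2. No library was tested as outlying, since each antibody had 2.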

How the results depend on the processing

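Of the values under 210 alternatives, 25 could not change by construction (0 intervals over 5000 bp to keep, a block that leaves the ratio as it is, or libraries and summits outside the pair). Of the others, 120 kept their direction or stayed within 1.5 times, 24 reversed and 41 counts moved. The cause of the reversals was not tested unless stated. Alternatives with at least 4 fragments, without 2-fragment summits at the background of 1 input fragment, without chromosome X, on promoter bases and on chromosome counts were chosen after seeing the data.

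The log2 ratios of peak numbers reversed at a q of at most 0.05 (RELA over RELB 0.11, RELB over NFKB2 0.39, RELA over NFKB2 0.50) and with at least 4 fragments (0.13, 0.31 and 0.43). Leaving out 1 library gave −0.093 to −0.0069, −0.40 to −0.31 and −0.44 to −0.37. The replicate block leaves each ratio as it is and gave an exact p of 0.5, the smallest it allows, for the 3 ratios of −0.05, −0.36 and −0.41. With the block the exact p of the promoter shares was 1, 0.5 and 1.

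The log2 ratio of promoter shares reversed with the 20000 smallest p-values (RELA over RELB 0.10, RELB over NFKB2 −0.061) and with at least 4 fragments (RELA over NFKB2 −0.016). Leaving out 1 library gave −0.19 to 0.17, −0.094 to 0.27 and −0.078 to 0.25. Those that reversed were 0.0068 (without RELA replicate 1) and 0.17 (without RELB replicate 1) for RELA over RELB, −0.094 and −0.059 for RELB over NFKB2 (without RELB replicate 1 and NFKB2 replicate 2) and −0.078 for RELA over NFKB2 (without NFKB2 replicate 2). In these ratios the replicate numbers are unbalanced between the antibodies.

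The antibody separation over all 3 antibodies was −0.885 with no replicate block (all 15 pairs), where pairs that share an input count as different antibodies. It ranged from −0.199 to 0.311 when 1 library was left out, with −0.199 and −0.165 without NFKB2 replicate 1 and 2. RELA against RELB was 0.0417 at a q of at most 0.05 and ranged from −0.129 to 0.104, with 0.104 and 0.0434 without RELA replicate 1 and 2. RELB against NFKB2 ranged from −0.337 to 0.705 (−0.265 without NFKB2 replicate 2) and RELA against NFKB2 from −0.433 to 0.773 (−0.369 without NFKB2 replicate 2). The replicate number separation kept its direction in every alternative, at 1.83 to 2.15 when 1 library was left out.

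Counts moved with the peaks, libraries or window counted. Regions of RELA, RELB and NFKB2 only and of all 6 libraries were 140, 148, 144 and 39 with the 20000 smallest p-values, 0, 1, 2 and 20 at a q of at most 0.05, and 10920, 9629, 6412 and 145 with at least 4 fragments. Those of all 6 were 1560 with peaks cut to 100 bp either side of the summit. Without 1 library the ranges were 21828 to 290718, 23726 to 307989, 49164 to 439655 and 4053 to 5054 (4600 and 5054 without RELA replicate 1 and 2). Genes with a promoter peak in both libraries of RELA, RELB and NFKB2 were 8569, 8976 and 9808 within 5 kb, 14996, 14879 and 15232 over gene spans, 3, 8 and 4 with the 20000 smallest p-values and 696, 670 and 418 with at least 4 fragments. A single library gave 4373 to 4421, 3987 to 5186 and 4541 to 5882. Chromosomes with NFKB2 above the others were 0, and below them 23, with at least 4 fragments, and above them 18 to 22 and below them 0 without 1 library. The lists hold no read totals, and 2 libraries per antibody cannot reach a p of 0.05 in any comparison.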

Other observations

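Luminal genes, which T47D cells are known to express, and widely active genes were counted like the pathway genes. Of 6 luminal genes with a start, 3 had a promoter peak in at least 1 RELA library, 5 with RELB and 6 with NFKB2, against 47.2%, 48.8% and 53.3% of all genes. In both libraries it was 0 with RELA, 0 with RELB and 1 with NFKB2, against 8.42%, 9.16% and 12.6% of all genes. This gene was ESR1, which encodes the estrogen receptor, with 3 and 2 fragments in the NFKB2 libraries, 3 in RELB replicate 1 and no peak in the remaining libraries. Over its span of 473 kb with 1 kb added, ESR1 had 70 and 45 peaks with RELA, 83 and 76 with RELB, and 121 and 120 with NFKB2, the same order as the whole lists.

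Of 7 widely active genes with a start, 5 had a promoter peak in at least 1 RELA library, 1 with RELB and 1 with NFKB2, against 47.2%, 48.8% and 53.3% of all genes. RPLP0, a ribosomal protein gene, had peaks of 6 and 5 fragments in the NFKB2 libraries and of 6 fragments in RELA replicate 2. Over gene spans, 4, 1 and 3 of the 10 widely active genes had peaks in both libraries of RELA, RELB and NFKB2, against 75.1%, 74.5% and 76.3% of all protein-coding genes, whose spans are not matched in length.

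Of the 8 genes with a start that the study discusses, 0 had a promoter peak in both libraries of an antibody. Of all genes this held for 8.42%, 9.16% and 12.6% with RELA, RELB and NFKB2, and 8 genes are too few to tell 0 from these shares. In at least 1 library it was 5 with RELA, 4 with RELB and 3 with NFKB2, against 47.2%, 48.8% and 53.3% of all genes. The paper names NOP10 and TPI1 for RELA binding, and TMEM147 and PSENEN for RELB binding, that was higher in knockdown than in control cells. Control lists alone do not test such a rise. PSENEN had 1 peak of 7 fragments in RELA replicate 2, with a fold of 3.85, and 1 of 5 fragments in RELB replicate 2. NOP10, a component of small nucleolar ribonucleoproteins, and CDK5, a kinase gene, each had 1 peak in RELA replicate 2, RELB replicate 2 and NFKB2 replicate 1. DAB2IP had 0 promoter peaks in the 6 libraries. BIRC5, which the paper reports from signal tracks as bound by p65 in control cells, has no listed start. Over its span with 1 kb added it had 2 and 4 peaks with RELA, 3 and 3 with RELB, and 4 and 3 with NFKB2. The highest −log10 q there was 0 in each library. A count of listed peaks over a gene span is another measure than signal tracks and does not test the paper's report.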
